A study of Homo sapiens with 6 samples.

Results

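Respiratory complex I was examined through 43 nuclear genes of its subunits and assembly factors in HCT116, a cell line grown from a human colorectal carcinoma, after knockdown of the long non-coding RNA GMDS-AS1. The members are a list of gene symbols, drawn up with earlier results of these data known, whose rule names parts of the complex and uses no measured value: 36 nuclear-encoded core and accessory subunits, and, as a second class, 7 assembly factors of the NDUFAF series. All 43 were found among the 60662 genes with a value, and all 43 were among the 16901 genes tested. The study asked what GMDS-AS1, an lncRNA induced by interleukin-6, does in colorectal cancer cells. Its cells had been stably transduced by lentivirus, from the puromycin-selectable pLKO.1 vector, with a non-target control hairpin (shCtrl) or with GMDS-AS1 shRNA 2 (GMDS-AS1 KD), and were grown in McCoy's 5a medium with serum. Poly-A selected RNA of 3 libraries per group, labelled as biological replicates 1 to 3, was sequenced. Both groups thus carry an integrated hairpin vector, the knockdown arm rests on a single hairpin, and whether the replicates came from separate transductions is not given in the sources used here.

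Complex I (NADH:ubiquinone oxidoreductase) is the entry point of electrons from NADH into the respiratory chain. Its peripheral arm, which reaches into the mitochondrial matrix, oxidises NADH through a flavin and passes the electrons along iron-sulfur clusters to ubiquinone, and its membrane arm pumps protons. The core subunits carry out catalysis and pumping and are split between the nuclear and the mitochondrial genome, and the accessory subunits around them are needed for assembly and stability. Assembly factors build the arms as separate modules and leave the finished complex. Nuclear genes of the respiratory chain are known targets of the transcription factors NRF1, GABP (an ETS family factor), YY1 and the estrogen-related receptors.

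The abundance of these transcripts was deposited as TPM, a share of all transcripts in a library corrected for transcript length. TPM cannot tell a change in transcripts per cell from a change in the other transcripts of the library, and it keeps no read total, so the depth is unknown and no counting error is given. Both a level and a scaled difference are therefore given. Levels are TPM as deposited, and log2 fold changes (GMDS-AS1 KD minus shCtrl, with their SE, n = 3 against 3) are on log2(TPM + 1) after scaling by the trimmed mean of M-values, which sets the median of all genes tested to -0.002. Without that scaling the median of all genes was -0.195, and every log2 fold change below is lower by a similar amount. A gene was called at a Benjamini-Hochberg adjusted p under 0.05 by limma over all 16901 genes.

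Of the libraries themselves, few facts bear on complex I. GMDS-AS1, listed as GMDS-DT, had 1.66, 2.21 and 1.34 TPM in shCtrl and 0.88, 0.91 and 0.79 TPM in KD. The groups did not overlap, and the log2 fold change was -0.41 ± 0.14 (adjusted p = 0.041, 0.015 to 0.15 over the alternatives), a call that was lost on leaving out shCtrl replicate 1 or 2 or any of the 3 KD libraries. Between 26061 and 26402 genes had a value above 0 in shCtrl libraries and between 24381 and 24814 in KD libraries. Of 11 markers of colorectal epithelium, EPCAM stood at 141 to 165 TPM in all 6 libraries, KRT8 and KRT18 were called lower with log2 fold changes of -1.46 and -1.83, CDX1 was listed at 0 and 5, CDX1 among them, were under 1 TPM everywhere. The 12 markers of other cell types summed to 21.9 to 24.4 TPM in shCtrl and 17.8 to 19.9 TPM in KD, with the leukocyte gene PTPRC at 0. The part of these differences in the results on complex I was not tested.

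Promoter sequences are shown first, because the 3 subunits with the largest fold changes share a motif with some that changed less. RefSeq promoter windows on GRCh38.p14, from 250 bases before to 50 bases after each transcription start, were at hand for 38 members, 32 of them subunits. The core of the NRF1 site, GCGCATGC, was searched on both strands and was found in 6 of 32 subunits (18.8%), namely NDUFS7, NDUFS6, NDUFA5, NDUFA6, NDUFA8 and NDUFB4. It was found in 3.68% of all 27305 genes with a window and in 6.22% of the protein-coding genes tested. The 6 include each of the 3 subunits whose fold change passed 2, and also NDUFB4, at the median of the subunits (log2 fold change 0.58), and NDUFS6, among the least changed (0.27, and 0.03 on the deposited TPM). The stretches below hold it in capitals for those 3 and for NDUFA6, in the direction of transcription, and the capitals run on where matches on the 2 strands overlap. They are, in order, chr7:123557943-123558002 on the minus strand, chr9:122159764-122159793 on the minus strand, chr19:1383808-1383867 on the plus strand and chr22:42090905-42090964 on the minus strand. Counted from the RefSeq start, the motif lay at -158 to -151 in NDUFA5 and across the start, -4 to 6, in NDUFA8. It lay at -73 to -66 in NDUFS7 and -166 to -159 in NDUFA6. The GENCODE v29 spans of these genes begin upstream of the motif.
NDUFA5: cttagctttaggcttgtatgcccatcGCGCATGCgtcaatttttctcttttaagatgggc
NDUFA8: gttgccggatGCGCATGCGCaggcgccgtg
NDUFS7: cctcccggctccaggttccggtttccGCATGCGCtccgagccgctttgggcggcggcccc
NDUFA6: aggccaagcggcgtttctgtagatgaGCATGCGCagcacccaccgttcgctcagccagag

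The YY1 motif, AAGATGGC, was found in 7 of 32 subunit windows (21.9%), against 3.52% of all genes with a window and 6.39% of the protein-coding genes tested. In each of the 7 it lay in the sense direction within the first 50 transcribed bases. There 1.57% of all genes with a window and 3.6% of the protein-coding genes tested held it. In each of the 7 it also covered an annotated start codon, the ATG within its letters. It is shown in 30 bases around the start codon of 3 subunits from different parts of the complex, at chr19:1383913-1383942 on the plus strand, chr12:4649113-4649142 on the plus strand and chr10:100529836-100529865 on the minus strand.
NDUFS7: aggccgaggccAAGATGGCggtgctgtcag
NDUFA9: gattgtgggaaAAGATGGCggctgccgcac
NDUFB8: tgaagaaggtgAAGATGGCggtggccaggg

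The other motifs searched, again on both strands, gave shares on either side of those of all genes. The estrogen-related receptor site AAGGTCA lay in 4 of 32 subunit windows (12.5%), against 4.80% of all genes with a window and 3.77% of the protein-coding genes tested. The CCAAT box lay in 8 (25.0%), against 39.7% and 43.3%. The ETS site CCGGAAGT lay in 2 (6.25%), above the 4.95% of all genes and below the 9.87% of protein-coding genes, and the TATA box TATAAA in 3 (9.38%), below the 14.0% of all genes and above the 8.53% of protein-coding genes. Of the 6 assembly factors with a window, 2 (NDUFAF4 and NDUFAF5) held the NRF1 core and none held the YY1, ETS or estrogen-related receptor site. The median log2 fold change was 1.01 over the 6 subunits with the NRF1 core and 0.55 over the 26 without it. The YY1 motif divided the subunits in the same sense, at 0.81 over 7 and 0.55 over 25. So did the estrogen-related receptor site (0.846 over 4 and 0.565 over 28) and the TATA box (0.641 over 3 and 0.576 over 29). These sets share genes, so their medians are not independent. Each of the 4 subunits with the estrogen-related receptor site (NDUFS7, NDUFS6, NDUFA5 and NDUFB4) also held the NRF1 core. NDUFS7 and NDUFA6 held the NRF1 core and the YY1 motif, and NDUFA7 and NDUFA9 the YY1 motif and the TATA box. The CCAAT box was near level (0.562 over 8 and 0.582 over 24). The ETS site went the other way (0.021 over 2 and 0.582 over 30). NDUFC2, the only member called lower, had no window and is in none of these medians. Outside complex I, 35.7% of the protein-coding genes with the NRF1 core and 33.5% of those without it were called higher. For the YY1 motif these shares were 45.5% and 32.8%, and for the ETS site 41.7% and 32.7%. They were 31.7% and 33.7% for the estrogen-related receptor site, 33.8% and 33.5% for the CCAAT box, and 29.8% and 34.0% for the TATA box. These are counts of letters in a window and were given no test.

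Complex I subunit transcripts were more abundant after GMDS-AS1 knockdown, across both arms of the complex. Of the 36 subunits, 33 were called higher (91.7%) where 28.5% of all genes tested were called higher, 1 was called lower (NDUFC2) where 25.9% of all genes were, and 2 did not pass (NDUFS1 and NDUFV3). Their median log2 fold change was 0.58. The adjusted p of the 33 ran from 7.1e-07 to 0.0145 and their log2 fold changes from 0.18 to 1.32. Of the 7 assembly factors 2 were called higher (28.6%, close to the share of all genes), 5 were not called, and their median was 0.14. Over all 43 members 35 were called higher, and 3 passed 2-fold (NDUFA5, NDUFA8 and NDUFS7) where 7.17% of all genes did so in either direction. The difference between subunits and assembly factors was not tested.

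The same order was seen in the deposited TPM, from a lower starting point. The 36 subunits summed to 7190, 7053 and 7018 TPM in the shCtrl libraries and to 8920, 9039 and 9007 TPM in the KD libraries, so the groups lay well apart. The 7 assembly factors summed to 206, 193 and 192 TPM in shCtrl and 222, 223 and 221 TPM in KD. In 24 subunits and 2 assembly factors all 3 KD libraries lay above all 3 shCtrl libraries, where 18.8% of all genes tested did. In 2 subunits (NDUFC2 and NDUFS1) and 2 assembly factors (NDUFAF1 and NDUFAF6) they all lay below, where 44.9% of all genes did. With limma on the deposited TPM, 24 subunits were called higher and 2 lower, where 16.3% of all genes were called higher and 40.3% lower, and the median of the subunits was 0.34 with that of all genes at -0.195. The plot of TPM by library shows every value.

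**Figure D1:**
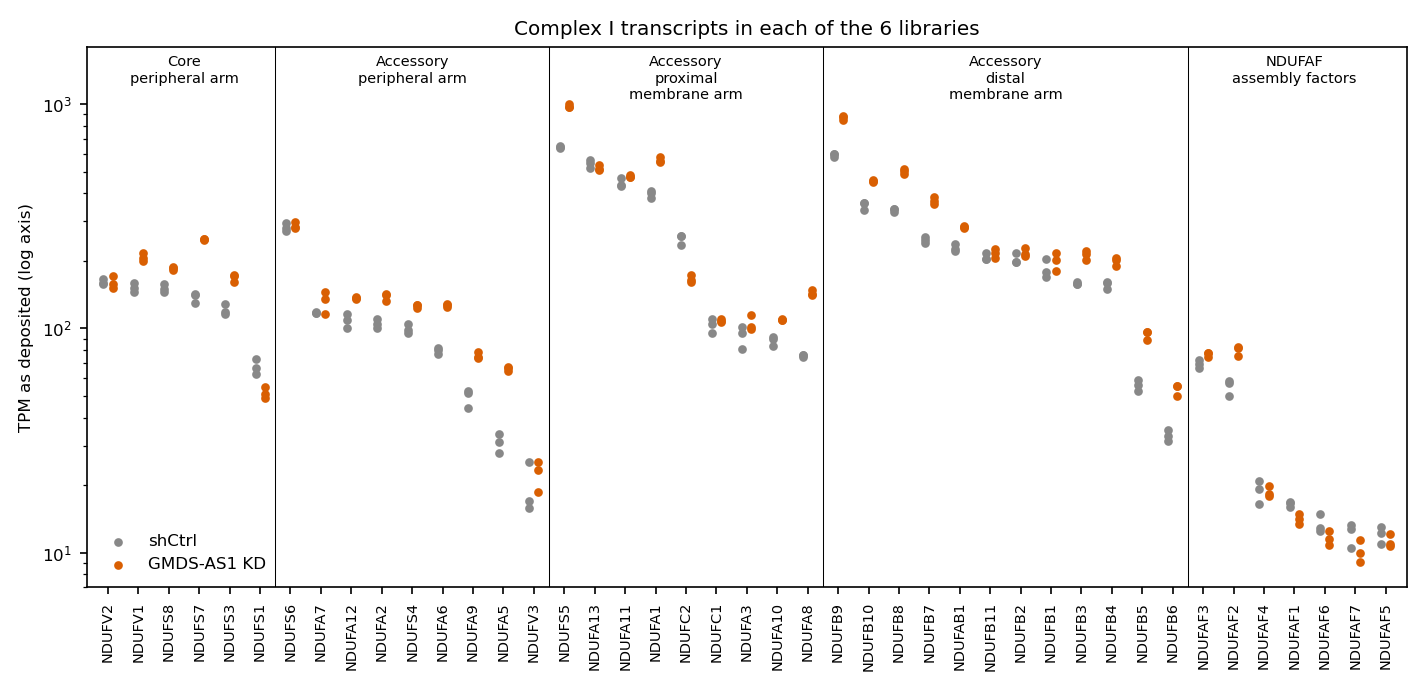
TPM as deposited (log axis) of the 43 complex I genes in each shCtrl library (grey, 3 points) and each GMDS-AS1 KD library (orange, 3 points), grouped by position in the complex and ordered by shCtrl mean within each group. The orange points lie above the grey ones without overlap for 26 genes and below them for 4, NDUFS1, NDUFC2, NDUFAF1 and NDUFAF6.

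Among the 6 core subunits of the peripheral arm, which bind the flavin and the iron-sulfur clusters, 5 were called higher, with a median of 0.62 over the 6. NDUFV1, the flavin-binding subunit that oxidises NADH, had 151, 159 and 145 TPM in shCtrl and 206, 200 and 216 TPM in KD. Every KD library was above every shCtrl library, and NDUFV1 rose by a log2 fold change of 0.69 ± 0.04 (adjusted p = 9.2e-06). NDUFV2, its partner in the NADH-oxidising tip, had 157, 166 and 160 TPM in shCtrl and 152, 171 and 158 TPM in KD. These groups overlapped, and the call of NDUFV2 (0.24 ± 0.05, adjusted p = 0.00755) rests on the scaling: on the deposited TPM its log2 fold change was -0.01.

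NDUFS7, which holds the last cluster before ubiquinone, moved the most of the core. It lies at chr19:1383527-1395589 on the plus strand in GENCODE v29 (GRCh38). It had 141, 142 and 130 TPM in shCtrl and 251, 248 and 252 TPM in KD, a log2 fold change of 1.11 ± 0.03 (adjusted p = 1.1e-06). The 3 KD libraries of NDUFS7 differed by less than 4 TPM and stood far above the controls. NDUFS3, a hydrophilic core subunit beside the ubiquinone site, had 129, 116 and 118 TPM in shCtrl and 161, 172 and 173 TPM in KD (log2 fold change 0.72 ± 0.05, adjusted p = 3.1e-05). NDUFS8, another iron-sulfur subunit near ubiquinone, had 157, 150 and 145 TPM in shCtrl and 183, 187 and 189 TPM in KD (0.55 ± 0.03, adjusted p = 1.6e-05). Neither gene overlapped between the groups.

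NDUFS1, the largest subunit and the holder of several iron-sulfur clusters, went against its neighbours. It had 73.0, 62.6 and 66.8 TPM in shCtrl and 54.8, 48.8 and 50.7 TPM in KD, so all KD libraries were below all shCtrl libraries. Its log2 fold change of -0.14 ± 0.07 did not pass the test (adjusted p = 0.115). NDUFS1 was called lower on the deposited TPM (-0.38), with upper-quartile scaling (-0.23), with genes of at least 1 TPM in every library (-0.19) and without shCtrl replicate 2 (-0.22). The NDUFS1 gene, at chr2:206114817-206159603 on the minus strand, has an annotated transcript of 11819 bases, the longest among the subunits, whose median was 944 bases.

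The 9 accessory subunits of the peripheral arm had a median log2 fold change of 0.58, and 8 were called higher. NDUFA5, a small subunit bound to the outside of this arm, had the highest fold change of all members. It lies at chr7:123536997-123558255 on the minus strand and had 33.9, 31.2 and 27.8 TPM in shCtrl and 64.7, 67.1 and 66.8 TPM in KD (1.32 ± 0.07, adjusted p = 8.1e-06). Its log2 fold change on the deposited TPM was 1.08, and it was the only member past 2-fold on that scale. NDUFA6, which docks the acyl carrier protein onto this arm, had 77.0, 80.3 and 81.4 TPM in shCtrl and 128, 129 and 125 TPM in KD (0.92 ± 0.04, adjusted p = 3.7e-06). NDUFA9, a subunit that binds NADPH and joins the arms, had 52.5, 51.6 and 44.3 TPM in shCtrl and 74.3, 74.1 and 78.6 TPM in KD (0.85 ± 0.06, adjusted p = 3.9e-05). Both rose without overlap.

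At the other end of this class were NDUFS6, NDUFA7 and NDUFV3. NDUFS6, which carries a zinc ion near the end of the cluster chain, had 280, 271 and 295 TPM in shCtrl and 280, 284 and 298 TPM in KD. Its call (0.27 ± 0.04, adjusted p = 0.0018) was lost on the deposited TPM (0.03), where the groups overlap throughout. NDUFA7 had 118, 117 and 117 TPM in shCtrl and 116, 145 and 136 TPM in KD. The first KD library of NDUFA7 was level with the controls, and its call (0.41 ± 0.08, adjusted p = 0.0041) was likewise lost on the deposited TPM (0.17). NDUFV3, a small subunit of the NADH-oxidising tip, had 25.5, 15.8 and 17.0 TPM in shCtrl and 25.2, 23.4 and 18.6 TPM in KD. Its first shCtrl library was above all of the KD libraries, and NDUFV3 did not pass (0.45 ± 0.19, adjusted p = 0.0855), although it was called without that library (0.63) or without KD replicate 3 (0.59). The remaining subunits of this class, NDUFS4, a subunit often mutated in Leigh syndrome, NDUFA2 and NDUFA12, rose by 0.58 to 0.64.

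The membrane arm is built of a proximal part, next to the ubiquinone site, and a distal part. In the proximal part 8 of 9 accessory subunits were called higher and 1 lower, with a median of 0.43. NDUFA8, a subunit on the intermembrane space side with disulfide-linked cysteine pairs, lies at chr9:122144058-122159819 on the minus strand. It had 76.0, 76.4 and 74.6 TPM in shCtrl and 148, 140 and 142 TPM in KD (1.16 ± 0.03, adjusted p = 7.1e-07). NDUFS5, which sits on the same face and has the same fold, was the most abundant member, with 641, 641 and 649 TPM in shCtrl and 971, 1005 and 974 TPM in KD (0.86 ± 0.03, adjusted p = 1.8e-06). NDUFA1, a short subunit with a membrane span encoded on the X chromosome, had 403, 411 and 380 TPM in shCtrl and 556, 580 and 554 TPM in KD (0.75 ± 0.04, adjusted p = 6.6e-06). In these 3 genes the lowest KD library was far above the highest shCtrl library.

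NDUFC2 was the only member called lower. This subunit of the membrane arm, at chr11:78068304-78080219 on the minus strand, had 234, 258 and 259 TPM in shCtrl and 165, 161 and 173 TPM in KD. All KD libraries were below all shCtrl libraries, and its log2 fold change of -0.34 ± 0.05 (adjusted p = 0.00098) kept its call in each of the 14 alternatives. Its partner NDUFC1, which lies beside it in the complex, had 95.02, 104 and 110 TPM in shCtrl and 108, 111 and 107 TPM in KD. The NDUFC1 groups overlapped, and its call (0.32 ± 0.06, adjusted p = 0.0043) was lost on the deposited TPM (0.07). NDUFA13, also known as GRIM-19, had 563, 549 and 519 TPM in shCtrl and 514, 510 and 538 TPM in KD. It was called higher after scaling (0.18 ± 0.03, adjusted p = 0.0020) and had a log2 fold change of -0.06 on the deposited TPM, where the groups overlapped. NDUFA3, NDUFA10 and NDUFA11 were called higher at 0.34 to 0.55, and the call of NDUFA3 was lost on the deposited TPM.

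In the distal part of the membrane arm all 12 accessory subunits were called higher, with a median of 0.63 and a range of 0.30 to 0.99. NDUFB5, a membrane-spanning subunit at chr3:179604690-179627647 on the plus strand, had 55.8, 52.4 and 58.8 TPM in shCtrl and 96.7, 96.2 and 89.0 TPM in KD (0.99 ± 0.06, adjusted p = 2.05e-05). NDUFB6 had 33.3, 31.5 and 35.3 TPM in shCtrl and 55.3, 49.9 and 55.5 TPM in KD (0.91 ± 0.06, adjusted p = 2.85e-05). NDUFB7, which faces the intermembrane space, had 257, 248.94 and 240 TPM in shCtrl and 361, 370 and 386 TPM in KD (0.83 ± 0.03, adjusted p = 2.9e-06). No library of one group reached the other in these 3 genes.

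The smallest fold changes of the distal part belonged to NDUFB11, NDUFB2 and NDUFB1. NDUFB11, also encoded on the X chromosome, had 204, 217 and 204 TPM in shCtrl and 207, 225 and 217 TPM in KD (0.30 ± 0.04, adjusted p = 0.0011). NDUFB2 had 217, 198 and 198 TPM in shCtrl and 229, 209 and 216 TPM in KD (0.34 ± 0.05, adjusted p = 0.00085). NDUFB1 had 204, 169 and 179 TPM in shCtrl and 202, 216 and 180 TPM in KD (0.36 ± 0.09, adjusted p = 0.0145). In all 3 the groups overlapped and the call was lost on the deposited TPM, and that of NDUFB1 was lost also without shCtrl replicate 2 (0.28) or 3 (0.33). The other 6, NDUFB3, NDUFB4, NDUFB8, NDUFB9, NDUFB10 and NDUFAB1, the mitochondrial acyl carrier protein, rose by 0.55 to 0.81. Of these NDUFB9 was the second most abundant member, at 581 to 602 TPM in shCtrl and 848 to 885 TPM in KD.

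**Figure D2:**
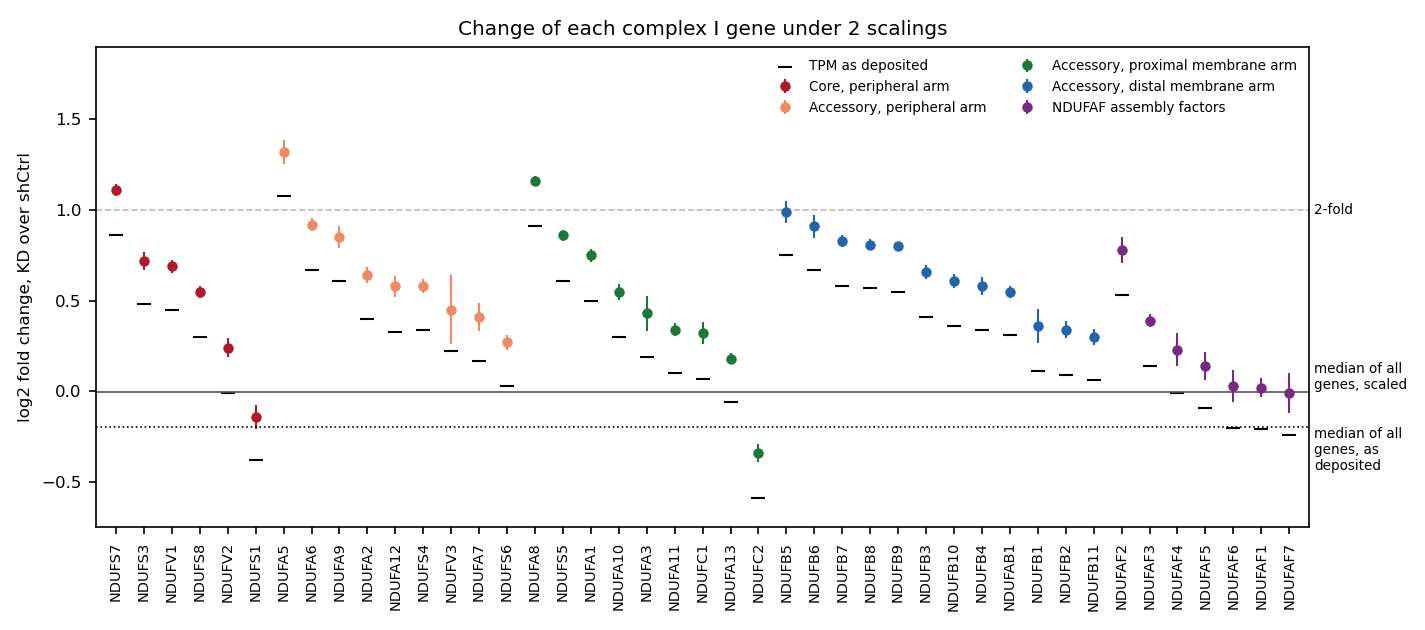
Log2 fold change (KD over shCtrl) of each complex I gene after trimmed-mean scaling, as a point with its SE, coloured by position in the complex, and on the TPM as deposited, as a black bar. The solid and dotted lines are the medians of all 16901 genes on the 2 scales (-0.002 and -0.195), and the dashed line marks 2-fold. The distal membrane arm lies wholly above the line, and 5 of the 7 assembly factors lie close to it.

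The plot of fold changes under 2 scalings also shows that the scaling moved the members together and left their order much as it was. NDUFA5, NDUFA8 and NDUFS7 headed the list on both scales, and NDUFC2 and NDUFS1 closed it on both.

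The NDUFAF assembly factors were less abundant than the subunits and for the most part did not differ past the test. Their mean levels ran from 12.0 to 69.2 TPM in shCtrl, against 19.4 to 644 TPM for the subunits, with medians of 16.5 and 151 TPM. NDUFAF2, which holds the place of NDUFA12 during assembly, was called higher, with 58.2, 49.8 and 56.8 TPM in shCtrl and 81.7, 82.3 and 75.4 TPM in KD (0.78 ± 0.07, adjusted p = 0.00014). NDUFAF3, an early factor of the ubiquinone module, was called higher with 72.1, 69.2 and 66.3 TPM in shCtrl and 77.3, 74.2 and 77.7 TPM in KD (0.39 ± 0.04, adjusted p = 0.00013). These 2 were the most abundant of the 7 and the only ones whose KD libraries all lay above the controls. NDUFAF4, which works together with NDUFAF3, had 20.8, 16.5 and 19.1 TPM in shCtrl and 17.9, 18.2 and 19.8 TPM in KD, overlapping groups with a log2 fold change of 0.23 ± 0.09 (adjusted p = 0.073). NDUFAF4 was called higher without shCtrl replicate 1 (0.28), which brings the count of assembly factors called higher to 3.

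The other 4 factors were between 9 and 17 TPM in every library. NDUFAF1, a factor of the membrane arm, had 16.9, 16.6 and 15.9 TPM in shCtrl and 14.1, 13.4 and 14.9 TPM in KD (0.02 ± 0.05). NDUFAF6 had 12.9, 14.9 and 12.5 TPM in shCtrl and 11.4, 12.5 and 10.8 TPM in KD (0.03 ± 0.09). In both genes the KD libraries lay below the controls on the deposited TPM, as in 44.9% of all genes, and neither passed the test after scaling. NDUFAF5, which hydroxylates an arginine of NDUFS7, had 12.2, 12.98 and 10.9 TPM in shCtrl and 10.7, 11.0 and 12.0 TPM in KD (0.14 ± 0.08). NDUFAF7, a protein arginine methyltransferase, had 12.7, 13.3 and 10.5 TPM in shCtrl and 9.10, 11.4 and 9.95 TPM in KD (-0.01 ± 0.11). Their groups overlapped. The adjusted p of the 5 factors not called ran from 0.073 to 0.94, and with the deposited TPM NDUFAF1 was called lower.

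In the order of the 43 levels, NDUFS5 and NDUFB9 were first and second in both groups. NDUFS7 went from place 20 to 11 and NDUFA8 from 30 to 22, while NDUFC2 went from 9 to 20.

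Subunits are short and abundant transcripts, and genes of that kind were more often called higher in these libraries. The median transcript was 944 bases for the subunits, 2012 bases for the assembly factors and 3055 bases for all protein-coding genes tested. Among protein-coding genes other than the members, 43.9% were called higher where the transcript was under 1000 bases and 26.3% where it was 4000 bases or more. By level, 15.2% were called higher under 10 TPM and 69.7% at 100 TPM or more. In the 229 other genes that were both under 1000 bases and at 100 TPM or more, 77.7% were called higher, and their median was 0.405 on the log2 scale. The 20 subunits of that kind were all called higher, with a median of 0.60. The part of length and level in the count of subunits was not tested.

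Within the subunits the fold change had little relation to these properties. Across the 36 genes, which share the libraries and are not independent, Spearman's rho of the log2 fold change was -0.12 with transcript length, -0.08 with GC content and -0.14 with the mean TPM. Across all 13147 protein-coding genes tested it was -0.14, 0.12 and 0.33.

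**Figure D3:**
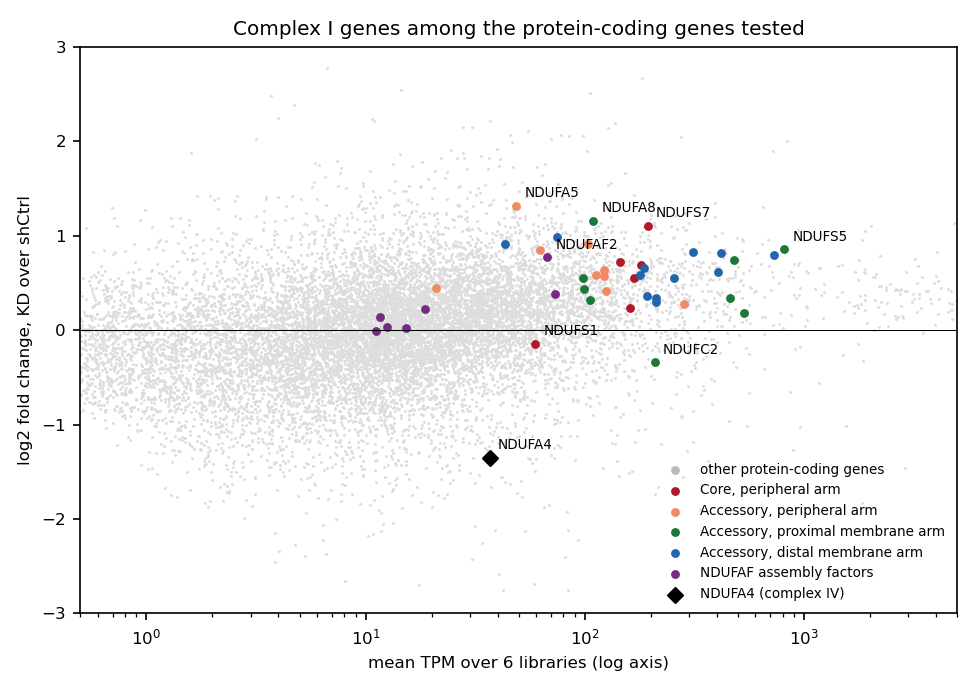
Log2 fold change (KD over shCtrl, trimmed-mean scaling) against the mean TPM over the 6 libraries (log axis) for the protein-coding genes tested, in grey, and the complex I genes, coloured by position in the complex, with NDUFA4 of complex IV as a black diamond. Of the 13147 genes, 151 lie outside the plotted range. Most complex I subunits lie above 0 and to the right, with NDUFC2 and NDUFS1 below 0 and NDUFV3 at a lower level, and the 5 assembly factors near 0 are the less abundant ones.

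**Figure D4:**
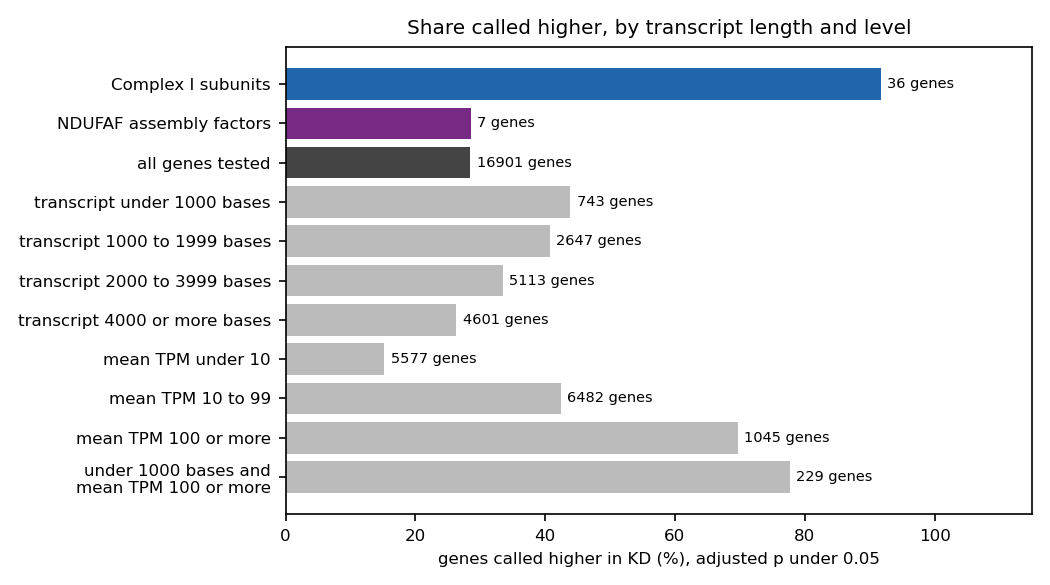
Percent of genes called higher in KD for the 36 subunits (91.7%), the 7 assembly factors (28.6%) and all 16901 genes tested (28.5%), and for the other protein-coding genes by transcript length and by mean TPM (grey bars). The number of genes stands at the end of each bar, and the bar closest to the subunits is that of short transcripts at 100 TPM or more (77.7%).

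The subunits of complex I that the mitochondrial genome encodes were the most abundant of the complex and moved less. MT-ND3 had 10743, 10313 and 11125 TPM in shCtrl and 11323, 12003 and 10929 TPM in KD (0.34 ± 0.05, adjusted p = 0.0015). MT-ND2 had the highest log2 fold change of the 7 (0.43 ± 0.04, adjusted p = 0.00023) and the only one whose groups did not overlap with KD above, at 5011 to 5403 and 5677 to 6038 TPM. MT-ND6, MT-ND4 and MT-ND5 were called higher as well after scaling (0.38, 0.17 and 0.17). The direction of MT-ND4 rests on the scaling: all 3 KD libraries (3978, 4008 and 3905 TPM) lay below all shCtrl libraries (4143, 4099 and 4320 TPM), and it was called lower on the deposited TPM (-0.08). The call of MT-ND5 was lost in most alternatives, among them without shCtrl replicate 1 or 2 or KD replicate 1 or 2. MT-ND1 and MT-ND4L were not called (-0.03 ± 0.05 and 0.02 ± 0.07). The median of the 7 was 0.17, and their sum was 40741 to 44571 TPM in shCtrl and 39987 to 41899 TPM in KD. After scaling 5 of the 7 were called higher and none lower, where 28.5% and 25.9% of all genes tested were. On the deposited TPM 1 was called higher (MT-ND2) and 3 lower (MT-ND1, MT-ND4 and MT-ND4L), where 16.3% and 40.3% of all genes were. When mitochondrial genome transcripts were left out before scaling none was tested. Poly-A selection bears on the levels of these transcripts, and its part was not tested.

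A further 12 assembly factors of complex I, NDUFAF8 among them, are not in the list of members. Of these 8 were called higher and 1 lower, with a median of 0.34, where 28.5% and 25.9% of all genes tested were. On the deposited TPM 5 were called higher and 3 lower, where 16.3% and 40.3% of all genes were. The lower one, NUBPL, which delivers iron-sulfur clusters to complex I, was named after its values were seen. It had 4.09, 3.36 and 2.82 TPM in shCtrl and 1.5, 1.68 and 2.25 TPM in KD (-0.48 ± 0.15, adjusted p = 0.031), and its call was lost without the filter and on leaving out shCtrl replicate 1 or 2 or KD replicate 1 or 2.

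Of the nuclear subunits of complexes II to V, 37 of 39 were called higher, where 28.5% of all genes tested were, and 1 lower. Their median was 0.62, so the rise was not limited to complex I. On the deposited TPM 32 were called higher and 3 lower, with a median of 0.38, where 16.3% and 40.3% of all genes were. Those raised past 2-fold after scaling were SDHB (1.10) and SDHD (1.03) of complex II, UQCR10 (1.12) of complex III, COX7B (1.02) of complex IV, and ATP5PB (1.03) and ATP5MC3 (1.24) of ATP synthase. With upper-quartile scaling 3 were raised past 2-fold, and on the deposited TPM none was, the highest being 0.99. NDUFA4, whose name was given as a complex I subunit and which belongs to complex IV, went the other way. It had 54.96, 54.8 and 57.6 TPM in shCtrl and 17.2, 17.8 and 18.7 TPM in KD, a log2 fold change of -1.35 ± 0.05 (adjusted p = 2.2e-06). Its groups were far apart, and it was the only NDUF-named gene to fall past 2-fold. Its paralog NDUFA4L2 had 1.68 to 1.79 TPM in shCtrl and 0.69 to 0.99 TPM in KD (-0.45 ± 0.11, adjusted p = 0.014), and its call was lost without the filter on low values.

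Among 9 regulators of respiratory chain genes, 8 were tested, 6 were called higher and none lower, where 28.5% of all genes tested were called higher. On the deposited TPM 5 were called higher and 2 lower, where 16.3% and 40.3% of all genes were. ESRRA, the estrogen-related receptor alpha, had 32.3, 35.1 and 33.0 TPM in shCtrl and 63.2, 59.5 and 61.1 TPM in KD (1.09 ± 0.04, adjusted p = 2.9e-06). PPARGC1B, a coactivator of that receptor, had 4.01, 3.73 and 3.64 TPM in shCtrl and 7.56, 6.97 and 8.14 TPM in KD (1.04 ± 0.08, adjusted p = 5.5e-05). Neither overlapped between the groups, and on the deposited TPM both were called higher below 2-fold (0.85 for ESRRA and 0.83 for PPARGC1B). GABPA (0.58), the mitochondrial transcription factor TFAM (0.51) and the coactivator PPRC1 (0.39) were called higher. NRF1 itself was near 10 TPM in all libraries, at 9.36 to 10.7 in shCtrl and 9.13 to 10.3 in KD. Its call (0.23 ± 0.08, adjusted p = 0.049) was lost on the deposited TPM (0.00), with upper-quartile scaling, with no filter or with that of 1 TPM in every library, and on leaving out any of the shCtrl libraries or KD replicate 1 or 2. YY1 (0.06 ± 0.05) and GABPB1 (-0.13 ± 0.10) did not pass. Both were called lower by limma on the deposited TPM (YY1 -0.18, adjusted p = 0.022, and GABPB1 -0.36, adjusted p = 0.0125). PPARGC1A was at 0 in all shCtrl libraries and at most 0.01 TPM in KD. No binding of these factors was measured.

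Reads of members can be shared with overlapping genes or copies. The strand setting of the authors' counting is not given in the sources used here. Many members overlap another gene in GENCODE v29. RPS28 overlaps NDUFA7 on the opposite strand, at mean levels of 1016 and 1020 TPM in shCtrl and KD. EEF1B2 overlaps NDUFS1 in the same way, at 1042 and 1034 TPM. An unnamed protein-coding gene overlaps NDUFA13 on its own strand, at 21.1 and 38.3 TPM (log2 fold change 1.07). Whether shared reads entered the values of NDUFA7, NDUFS1 and NDUFA13 was not tested. FAM126B, which overlaps NDUFB3 on the opposite strand, had mean levels of 159 and 216 TPM in shCtrl and KD, close to the 159 and 212 TPM of NDUFB3 itself, and the values of both are uncertain for that reason. NDUFC2 shares exons with the readthrough gene NDUFC2-KCTD14, which had 3.08 to 9.34 TPM. Of 61 pseudogenes named after 20 members, 48 were listed at 0 in every library and the highest value was 1.36 TPM (NDUFV2P1), so that few reads had been assigned to copies.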

How the data were processed

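The authors prepared poly-A enriched libraries with a TruSeq RNA kit and named Cufflinks and RSEM for the expression values. The submitters' processing notes name Trimmomatic 0.27, TopHat2 2.1.1 and GRCh38.p13. The annotation is not given in the sources used here. The deposited values are TPM per Ensembl gene and library, with no counts. DESeq2, the tool the authors gave for their own tests, was not used here because it needs counts. Values of 60662 genes were read, and 2 genes whose lines are broken were left out. A gene was tested if 3 or more libraries reached 0.5 TPM, which 16901 did.

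Scale factors were trimmed means of M-values on TPM (30% of log ratios and 5% of mean values trimmed, no weights), and log2(TPM + 1) was compared with limma (version 3.58.1, under R 4.3.3). The variance trend was kept, and the model held no block. p-values were adjusted by Benjamini-Hochberg over all genes and called under 0.05, and past 2-fold means a called gene with an absolute log2 fold change of at least 1. A pseudocount of 1 understates the change of low genes. Tested on simulated data for this comparison with 16901 genes, the fit called 38 and 44 of 50 genes lowered and raised by 1 on the log2 scale, 21 and 24 of 50 lowered and raised by 0.5, and 6 unchanged genes. 

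Gene positions, transcript lengths (1 transcript per gene, the principal isoform and then the longest) and start codons came from GENCODE v29 on GRCh38, and promoter windows from RefSeq (GRCh38.p14). Members, gene lists and motifs were chosen with earlier results of these data known. The genes named are the 43 members, with values by library for the core subunits, the assembly factors, members past 2-fold and the 3 highest and 3 lowest of each accessory class. They also include genes of the other lists past 2-fold, NDUFA4, the MT-ND genes, the regulators, and neighbours or copies of members. The replicate numbers did not pair the libraries. Alternatives covered scaling, pseudocount, filter, variance trend, the replicate block and each library left out. Python 3.11.15 with numpy 2.4.6 and pandas 2.3.3 was used.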

Additional observations from a re-analysis of the deposited data

How the results depend on the processing

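Of the 36 members called, 27 were called in the same direction in all 14 alternatives. On the deposited TPM 3 members were called lower (NDUFC2, NDUFS1 and NDUFAF1), 2 of them subunits and 1 an assembly factor, 1 member passed 2-fold, and the medians were 0.337 for subunits and -0.091 for assembly factors. Upper-quartile scaling and the filter of 1 TPM in every library each gave 2 members called lower, both subunits, with subunit medians of 0.493 and 0.532 and assembly factor medians of 0.054 and 0.090. Without a filter the subunit median was 0.615. The shift of the median of all genes by the scaling is in each of these values by construction. The replicate numbers did not pair the libraries, as their deviations correlated at 0.029, -0.038 and 0.014 for numbers 1 to 3, and the replicate block gave 2 members called lower, both subunits, with NDUFS1 as the added call. With the block NDUFV3 was called higher as well (36 members in all), and NUBPL, NRF1, MT-ND5 and GMDS-AS1 lost their calls. Leaving out each library gave 34 to 37 members called higher, 1 to 2 lower, 32 to 34 subunits higher, 1 to 2 lower, 2 to 3 assembly factors higher, and medians of 0.542 to 0.607 for subunits and 0.063 to 0.175 for assembly factors. Without shCtrl replicate 2 the second lower call was NDUFS1.

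Some values changed sign. On the deposited TPM, of genes called higher after scaling, NDUFV2 (-0.01), NDUFA13 (-0.06), MT-ND5 (-0.07) and EEF1B2 (-0.01) were no longer called and MT-ND4 (-0.08) was called lower. In complexes II to V, ATP5F1D (-0.02) was no longer called and ATP5F1B (-0.10) was called lower. Of genes not called after scaling, the sign changed, among others, for NDUFAF1 (-0.21), NDUFAF4 (-0.01), NDUFAF5 (-0.09), NDUFAF6 (-0.20), MT-ND4L (-0.23), YY1 (-0.18, called lower) and EPCAM (-0.06). With upper-quartile scaling it changed for NDUFAF1 (-0.06), NDUFAF6 (-0.05), MT-ND4L (-0.07) and YY1 (-0.03), and with 1 TPM in every library NDUFAF1 (-0.03), NDUFAF6 (-0.02) and MT-ND4L (-0.03). Without a filter NDUFAF7 (0.02) and MT-ND1 (0.01) turned. On leaving out each library, NDUFAF1 ranged from -0.01 to 0.05, NDUFAF6 from -0.03 to 0.09, NDUFAF7 from -0.11 to 0.06, MT-ND1 from -0.07 to 0.01, MT-ND4L from -0.05 to 0.08 and YY1 from -0.0003 to 0.09. The depth behind each value is unknown.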

Other observations

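Several complex I genes start within a few bases of a gene on the opposite strand, and the values of such pairs are given here without a test of their relation. MRPL36, a protein of the mitochondrial ribosome whose start lies 34 bases from that of NDUFS6, had 65.2 TPM in shCtrl and 114.64 TPM in KD on average (log2 fold change 1.05 ± 0.03, adjusted p = 1.1e-06), while NDUFS6 itself rose by 0.27. MRPL47, another protein of that ribosome, 36 bases from NDUFB5, had 49.5 and 69.7 TPM (0.73 ± 0.04, adjusted p = 1.1e-05), beside 0.99 for NDUFB5. EEF1B2, a translation elongation factor subunit that overlaps NDUFS1 and starts 18 bases from its start, had 1042 and 1034 TPM (0.24 ± 0.03, adjusted p = 0.00034), beside -0.14 for NDUFS1. Other neighbours as close were not called. These were CPSF2, 20 bases from NDUFB1 (0.02, adjusted p = 0.80), NDUFA6-DT, 24 bases from NDUFA6 (-0.01, adjusted p = 0.95), and OSCAR, 36 bases from NDUFA3 (-0.38, adjusted p = 0.46). The 43 members lie on 21 chromosomes, with 6 on chromosome 19 as the most.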
